A study of Mus musculus with 12 samples.

Results

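Expression of fibrillar collagen chains was followed while embryonic stem (ES) cells of the mouse differentiated at random, by way of 9 of the 11520 array features that carried the symbol of 1 of 5 chains. Col1a1 and Col3a1 had 3 probes each, and Col1a2, Col5a1 and Col5a2 had 1 probe each. The members were picked by symbol, with earlier results of these data known, and each probe was kept apart. Embryoid bodies (EB), clumps of ES cells that form a mixture of tissues with no inducing factor added, had been dissociated and plated in DMEM with fetal bovine serum for 4, 8, 15 or 21 days. The ES cells, of the R1 line, were kept undifferentiated on gelatin with leukemia inhibitory factor. Each of 12 arrays compared EB RNA of 1 day with ES RNA, with 3 arrays a day. A plated EB culture holds many cell types at once, so fewer cells of a type and less RNA per cell cannot be told apart in any value below.

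Fibrillar collagens form the tensile fibres of skin, bone, tendon, vessel wall and most organ stroma. Type I collagen is a trimer of the chains encoded by Col1a1 and Col1a2, type III is a trimer of Col3a1 chains alone, and type V, built from Col5a1 and Col5a2 chains, starts fibrils and limits their width. The chains are made mainly by fibroblasts, osteoblasts and smooth muscle cells, are hydroxylated and folded in the endoplasmic reticulum, and are trimmed and crosslinked outside the cell.

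Values are the authors' normalized log ratios, read as base 2 and with the deposited sign, so a positive value means a higher signal in EB than in ES RNA. That direction is likely and not settled: the protocols for dye labelling give it, and markers move with it, whereas the sample titles and dye fields give the opposite. If the sign ran the other way, each higher would be a lower, at the same counts and p-values. A ratio of 1 on this scale is a doubling, and no signal intensity was used here, so the ratios do not tell which chain was most abundant. Calls are limma's moderated test at a Benjamini-Hochberg adjusted p under 0.05 over all 11520 features.

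All arrays had medians close to 0, and arrays of the same day correlated at 0.00518 to 0.206 on day 4, 0.349 to 0.614 on day 8, 0.392 to 0.818 on day 15 and 0.560 to 0.770 on day 21. The arrays were split by the sign of the first principal component of the features without a gene symbol, which held 35.0% of their variance. That gave a set of 7 and a set of 5, each holding arrays of every day. Such a cut at 0 makes 2 sets in any data, and arrays 1 and 2 of day 8 lay closest to it, at -0.11 and 0.13. The second set holds array 3 of days 4, 15 and 21 and arrays 2 and 3 of day 8. The early arrays of the 2 sets also differed in visceral endoderm markers (Afp, Ttr, Apoa1 and Trf), whose median was 1.33, 2.22 and 2.998 on the day 4 and day 8 arrays of the second set and between -0.21 and 0.09 on those of the first. The 4 pluripotency markers (Pou5f1, Nanog, Sox2 and Zfp42) were all called lower in EB at day 21, with a median of -1.352. Markers were weighed in reading the sign, so this is no separate check of the direction or of the labels.

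The 5 genes lie on 4 chromosomes of the mouse genome. Col1a1 is on chromosome 11, Col1a2 on chromosome 6 and Col5a1 on chromosome 2, while Col3a1 and Col5a2 are neighbours on chromosome 1 with 0 annotated genes between them in RefSeq's GRCm38.p6 table. RefSeq's promoter table held 3 of the 5 genes. The 250 bases before the annotated start are shown for these 3, which differ widely in base composition. Capitals mark every match on either strand to 4 short motifs, which were searched as TATAAA for the TATA-type box, CCAAT for the NF-Y type box, GGGCGG for the GC-type box and CAGAC for the Smad element. No matches overlap in these windows. A match on the opposite strand appears as its reverse complement.
Col1a2 chr6:4505368-4505617 plus strand: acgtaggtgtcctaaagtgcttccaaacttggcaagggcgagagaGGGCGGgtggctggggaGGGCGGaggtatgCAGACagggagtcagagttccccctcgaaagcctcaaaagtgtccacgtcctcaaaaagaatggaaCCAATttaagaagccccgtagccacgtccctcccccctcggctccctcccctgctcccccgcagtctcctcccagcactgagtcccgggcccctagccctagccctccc
Col3a1 chr1:45311288-45311537 plus strand: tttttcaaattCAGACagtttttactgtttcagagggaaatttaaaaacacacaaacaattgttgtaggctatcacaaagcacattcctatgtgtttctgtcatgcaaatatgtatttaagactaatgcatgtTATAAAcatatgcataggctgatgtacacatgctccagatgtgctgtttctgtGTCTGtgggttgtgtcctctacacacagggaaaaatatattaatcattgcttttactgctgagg
Col5a1 chr2:27886175-27886424 plus strand: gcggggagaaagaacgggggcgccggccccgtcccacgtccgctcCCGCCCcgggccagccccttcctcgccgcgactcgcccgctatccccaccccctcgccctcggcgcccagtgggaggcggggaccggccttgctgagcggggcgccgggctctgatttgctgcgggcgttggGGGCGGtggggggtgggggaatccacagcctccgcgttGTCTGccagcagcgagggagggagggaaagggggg
G and C made up 62.0% of the Col1a2 window, 35.2% of the Col3a1 window and 76.4% of the Col5a1 window, against a median of 52.4% over all 32851 windows in the table. The Col1a2 window held GGGCGG at positions -205 and -188, counted from -1 at the last base before the start, CAGAC at -175 and CCAAT at -109. The Col3a1 window held TATAAA at -117 and CAGAC at -239 and, on the opposite strand, at -64. The Col5a1 window held GGGCGG at -205 on the opposite strand and at -73, and CAGAC at -35 on the opposite strand. Among all windows of this length, 42.2% held CAGAC, 33.8% CCAAT, 32.7% GGGCGG and 12.4% TATAAA, so CAGAC, the motif found in all 3 windows, is also the most common of the 4.

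The first question the time series addresses is when, relative to ES cells, the chains change. At days 4 and 8 no probe was called higher in EB, at day 15 probes of Col1a1, Col1a2, Col3a1 and Col5a1 were, and at day 21 each of the 5 genes had at least 1. Col3a1 probe 5728 had the highest day 21 mean, and Col1a1 probe 1665, Col1a2, Col5a2 and Col5a1 followed. At day 21, 7 of the 9 probes were called higher in EB and 0 lower, with a median over the 9 probes of 1.81 (median of all features 0.00335). Of all features, 8.58% were called higher at day 21 and 9.69% lower. Without day 21 array 1, 6 of the 9 probes and 3.13% of all features were called higher.

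**Figure D1:**
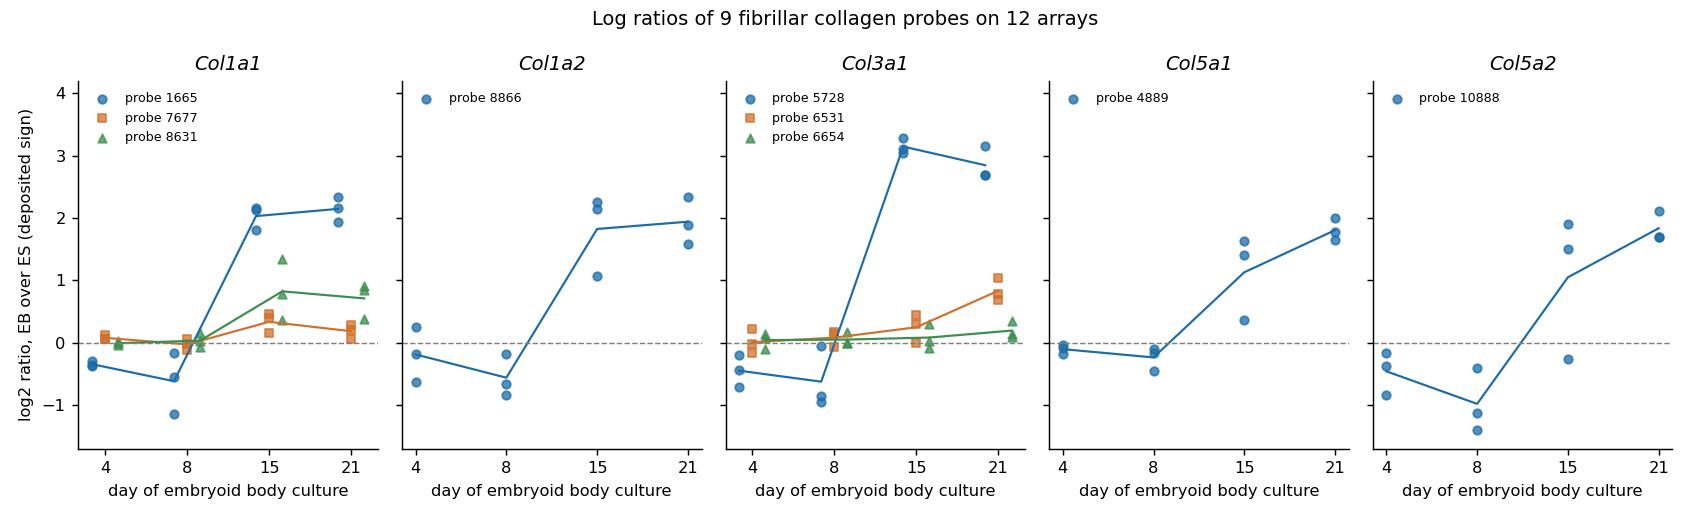
Log2 ratio of EB over ES RNA (vertical axis) for each of the 9 probes on each of the 12 arrays, by day of culture (horizontal axis, days evenly spaced and not to scale). Points are single arrays, lines join the means of 3 arrays, and the dashed line marks equal signal. Probes 1665, 7677, 8631, 8866, 5728, 6531 and 4889 lie above 0 on all 6 arrays of days 15 and 21, and probes 6654 and 10888 on 5 of them. Probe 6654 of Col3a1 stays below 0.35 throughout.

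Type I collagen is taken first. Col1a1 probe 1665 (GenBank U03419) gave -0.37, -0.29 and -0.36 on the day 4 arrays, -0.16, -0.55 and -1.14 on day 8, 2.13, 2.17 and 1.80 on day 15, and 2.34, 1.94 and 2.17 on day 21. All 6 late arrays lay far above all 6 early ones. The mean was 2.03 ± 0.20 at day 15 (SD, n = 3; limma adjusted p = 9.27e-06) and 2.15 ± 0.20 at day 21 (SD, n = 3; limma adjusted p = 3.20e-06), or 4.09-fold and 4.44-fold over ES.

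Col1a2, the partner chain, gave -0.18, 0.25 and -0.62 on the day 4 arrays, -0.19, -0.66 and -0.84 on day 8, 2.15, 2.26 and 1.07 on day 15, and 1.89, 1.59 and 2.35 on day 21 with probe 8866. Again the late and early arrays did not overlap, though array 3 of day 15 was the lowest of the late ones. The means were 1.83 ± 0.66 at day 15 (SD, n = 3; limma adjusted p = 5.21e-04) and 1.94 ± 0.38 at day 21 (SD, n = 3; limma adjusted p = 1.48e-04), which is 3.55-fold and 3.85-fold.

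Both other Col1a1 probes gave smaller ratios. Probe 8631 (GenBank M14423) lay between -0.07 and 0.15 on the 6 early arrays and gave 0.78, 1.34 and 0.36 on day 15 and 0.91, 0.38 and 0.85 on day 21. Its means of 0.83 ± 0.49 at day 15 and 0.71 ± 0.29 at day 21 were called higher (SD, n = 3 each; limma adjusted p = 0.00459 and 0.00588). The day 15 call is lost without day 15 array 2 (limma adjusted p = 0.0552) and the day 21 call without day 21 array 1 (limma adjusted p = 0.0669). Probe 7677 (GenBank S67530) stayed between -0.12 and 0.13 early and gave 0.40, 0.46 and 0.16 on day 15 and 0.28, 0.06 and 0.21 on day 21. Its late and early arrays overlapped, and only its day 15 mean of 0.34 ± 0.16 was called (SD, n = 3; limma adjusted p = 0.0187), a call that is lost without array 1 or array 2 of that day (limma adjusted p = 0.134 and 0.189). At day 21 it averaged 0.19 ± 0.11 (SD, n = 3; limma adjusted p = 0.127).

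Type III collagen showed the widest spread between probes of a gene. Col3a1 probe 5728 (GenBank AK019448) gave -0.19, -0.44 and -0.71 on the day 4 arrays, -0.06, -0.95 and -0.86 on day 8, 3.29, 3.05 and 3.11 on day 15, and 3.16, 2.70 and 2.69 on day 21. The late arrays lay at least 2.69 above ES on every array, including those of both array sets. Its means of 3.15 ± 0.13 at day 15 (SD, n = 3; limma adjusted p = 4.28e-07) and 2.85 ± 0.27 at day 21 (SD, n = 3; limma adjusted p = 7.19e-07) are 8.87-fold and 7.21-fold. It ranked 3rd of 11520 features by its day 21 mean.

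Col3a1 probe 6531 (GenBank X52046) gave -0.02, -0.17 and 0.22 on day 4, -0.07, 0.15 and 0.17 on day 8, 0.30, 0.45 and 0.00 on day 15, and 0.78, 1.03 and 0.70 on day 21. Only its day 21 arrays stood apart from all the others. That day's mean of 0.84 ± 0.18 was called higher (SD, n = 3; limma adjusted p = 2.64e-04), whereas the day 15 mean of 0.25 ± 0.23 was not (SD, n = 3; limma adjusted p = 0.153). Probe 6654 (GenBank M18933) ranged from -0.10 to 0.34 over all 12 arrays and was not called at any day, with 0.20 ± 0.13 at day 21 (SD, n = 3; limma adjusted p = 0.158).

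Both type V probes lay below 0 on all arrays of days 4 and 8 and were called higher at day 21, with wide spread at day 15. Col5a1 probe 4889 gave -0.04, -0.18 and -0.09 on day 4, -0.45, -0.16 and -0.09 on day 8, 1.41, 1.63 and 0.36 on day 15, and 1.65, 1.77 and 2.003 on day 21. The 6 late arrays were all above the 6 early ones, and array 3 of day 15 was the lowest of the late ones. Means were 1.13 ± 0.68 at day 15 (SD, n = 3; limma adjusted p = 0.00219) and 1.81 ± 0.18 at day 21 (SD, n = 3; limma adjusted p = 4.64e-05), or 2.19-fold and 3.50-fold.

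Col5a2 probe 10888 gave -0.37, -0.17 and -0.84 on day 4, -1.13, -0.41 and -1.40 on day 8, 1.90, 1.51 and -0.26 on day 15, and 1.70, 1.69 and 2.12 on day 21. One late array, day 15 array 3, fell among the early ones. The day 15 mean of 1.05 ± 1.15 missed the threshold (SD, n = 3; limma adjusted p = 0.0502), and without that array it was 1.71 (limma adjusted p = 6.84e-04). With all arrays it was called with array weights (1.53, limma adjusted p = 2.89e-04) and with the replicate number as a block (limma adjusted p = 0.0292). At day 21 the mean of 1.84 ± 0.24 was called higher, 3.58-fold (SD, n = 3; limma adjusted p = 0.00186).

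Day 15 array 3 is the 1 late array of that day in the second array set, and its Col1a2, Col5a1 and Col5a2 values of 1.07, 0.36 and -0.26 were below both other day 15 arrays. Col3a1 probe 5728 at 3.11 lay between the other day 15 arrays, and Col3a1 probe 6654 at 0.31 lay above both. Col1a1 probes 1665, 8631 and 7677 and Col3a1 probe 6531 were also lowest of their day on day 15 array 3, at 1.80, 0.36, 0.16 and 0.00. Probe 1665 gave 2.13 and 2.17 on the other day 15 arrays. The median of 4 heart muscle markers was likewise low on day 15 array 3, at 0.37 against 1.45 and 1.33 on the other day 15 arrays. That of the visceral endoderm markers was 3.17 against 3.34 and 3.28. On the day 21 array of the same set, the Col1a2, Col5a1 and Col5a2 ratios of 2.35, 2.003 and 2.12 were the highest of their day. The part of the array set in the day 15 values was not tested.

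Counting all 9 probes against ES, 0 were called at day 4, 1 was called lower at day 8, 6 were called higher at day 15 and 7 at day 21. Among all features, 0% were called in either direction at day 4, 1.2% higher and 1.1% lower at day 8, and 5.66% higher and 5.06% lower at day 15. Without day 15 array 2, 4 of the 9 probes and 1.05% of all features were called higher at day 15. At an unadjusted p under 0.05, limma had 2 of the 9 at day 4 and 4 at day 8, all with negative ratios, beside 9.95% and 19.1% of all features in either direction. The 1 probe lower at day 8 was Col1a1 probe 1665, at -0.62 ± 0.49 (SD, n = 3; limma adjusted p = 0.0469). That call was lost in 10 of 12 fits that left out 1 array each, with adjusted p-values of 0.0190 to 0.349. Col5a2 had the lowest day 8 mean, -0.98 ± 0.51, which was not called (SD, n = 3; limma adjusted p = 0.117). Col3a1 probe 5728 at -0.62 and Col1a2 at -0.56 were likewise not called (limma adjusted p = 0.0614 and 0.204). These calls turn on the setting. Alternatives in which probe 5728 was called lower include the replicate block (limma adjusted p = 0.0131) and a fit that left out 1 array (0.0126). Col1a2 was called lower with array weights (0.0299), and Col5a2 after quantile normalization (0.0386) and without day 15 array 3 (0.0163).

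The next question is between which days the chains changed, asked on differences between EB days. A dye effect alike on all arrays drops out of these. Of the steps between neighbouring days, only that between days 8 and 15 held called probes, which belong to Col3a1, Col1a1 and Col1a2. Day 15 against day 8 gave 3 of the 9 probes higher and 0 lower, in a comparison where 0.122% of all features, 14 in number, were called higher and 0.0521% lower. Col3a1 probe 5728 differed by 3.77 (95% interval 3.29 to 4.26; limma adjusted p = 6.39e-06), Col1a1 probe 1665 by 2.65 (2.21 to 3.09; limma adjusted p = 4.87e-05) and Col1a2 by 2.39 (1.70 to 3.08; limma adjusted p = 0.00798). These were the 1st, 2nd and 4th largest differences among the 11520 features. The 3rd was Postn, which encodes periostin, a matrix protein that binds type I collagen, at 2.44 (limma adjusted p = 1.17e-05).

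Type V chains had positive differences between these days that were not called. Col5a2 gave 2.03 (95% interval 1.07 to 2.99; limma adjusted p = 0.121) and Col5a1 gave 1.37 (0.82 to 1.92; limma adjusted p = 0.0598). In both, every day 15 array lay above every day 8 array, by at least 0.15 for Col5a2 and 0.45 for Col5a1. The share of all features for which that held was not counted, so it adds no support to a change. Without day 15 array 3, 6 of the 9 probes and 1.05% of all features were called higher.

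Between days 8 and 4, and between days 21 and 15, 0 of the 9 probes were called in limma. The share of all features called higher was 0% and 0.00868% in these comparisons. At an unadjusted p under 0.05, limma had 0 probes for day 8 against day 4 and 2 for day 21 against day 15, beside 6.93% and 6.39% of all features. The 2 were Col3a1 probe 6531, higher at day 21 by 0.59 (95% interval 0.26 to 0.91; limma adjusted p = 0.519), and Col5a1, higher by 0.68 (0.13 to 1.23; limma adjusted p = 0.716). Col3a1 probe 5728 gave -0.30 (-0.78 to 0.19), Col1a1 probe 1665 gave 0.12 (-0.33 to 0.56) and Col1a2 gave 0.12 (-0.57 to 0.81) for day 21 against day 15, so a further change of up to about those bounds cannot be told from 0 with 3 arrays a day.

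Over the whole course, day 21 against day 4, 6 of the 9 probes were called higher and 0 lower, where 2.57% of all features were called higher and 3.06% lower. Each of the 5 genes had at least 1 probe among the 6. Day 21 against day 4 was 3.30 for Col3a1 probe 5728, 2.49 for Col1a1 probe 1665, 2.30 for Col5a2, 2.13 for Col1a2, 1.91 for Col5a1 and 0.82 for Col3a1 probe 6531. Col1a1 probe 8631 at 0.72 was not called (limma adjusted p = 0.0680). Setting days 15 and 21 together against days 4 and 8, 5 of the 9 probes had all 6 late arrays above all 6 early arrays, which held for 1.47% of all features, and 0 had all late arrays below all early ones, which held for 1.65%. They were probes 1665 and 8631 of Col1a1, 8866 of Col1a2, 5728 of Col3a1 and 4889 of Col5a1.

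**Figure D2:**
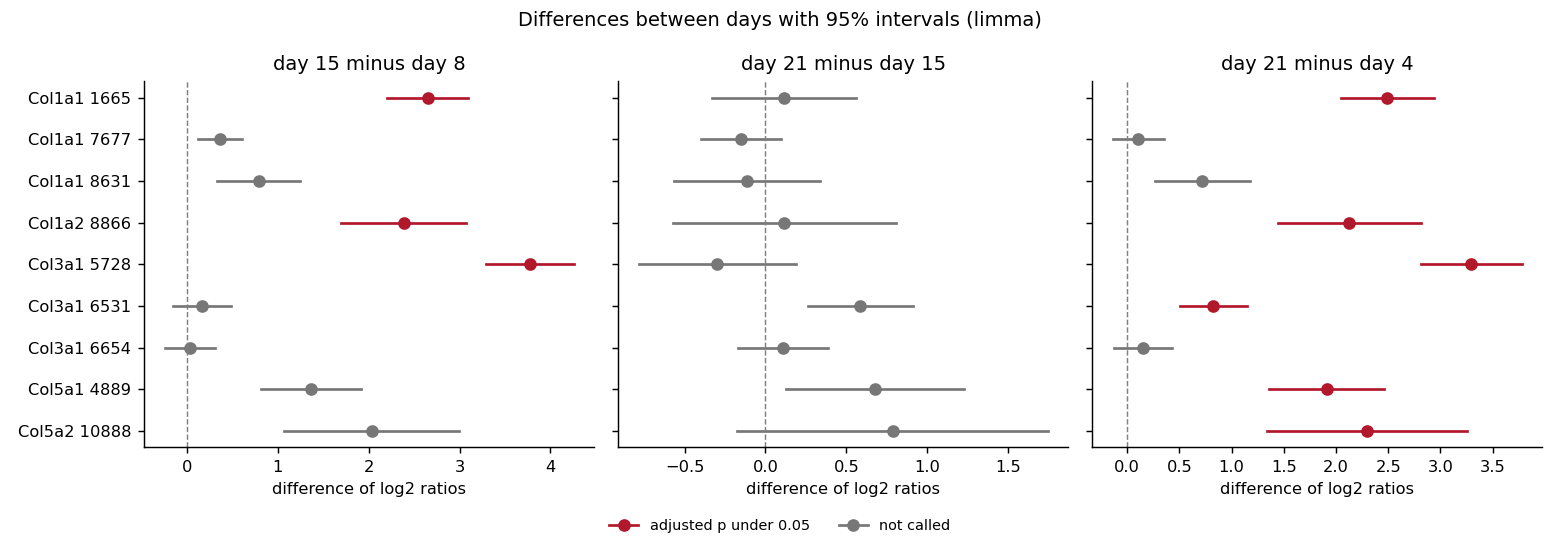
Difference of mean log2 ratios for day 15 minus day 8, day 21 minus day 15 and day 21 minus day 4 (horizontal axes, scales differ between panels), for each probe (rows), with limma's 95% interval as a bar. Red marks an adjusted p under 0.05: 3 probes for day 15 minus day 8, 0 for day 21 minus day 15 and 6 for day 21 minus day 4.

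Probes of 1 gene disagreed in size. Over the 6 arrays of days 15 and 21, Col1a1 probe 1665 exceeded probe 7677 by 1.83 ± 0.16 and probe 8631 by 1.32 ± 0.26 (SD, n = 6), and probe 8631 exceeded probe 7677 by 0.51 ± 0.25 (SD, n = 6). Col3a1 probe 5728 exceeded probe 6531 by 2.46 ± 0.56 and probe 6654 by 2.86 ± 0.36 (SD, n = 6). In each of these 5 pairs the order held on all 6 arrays. Over all 12 arrays, the early ones included, 0 of the 6 pairs passed (exact permutation, smallest adjusted p = 0.119). Of the 12 arrays, probe 1665 lay above probes 7677 and 8631 on 6 each. Probe 5728 lay above probe 6654 on 6 and above probe 6531 on 7. For these pairs the order thus belongs to the late arrays and was reversed on most early ones. Over the 6 late arrays, the exact two-sided sign-flip permutation test gave p = 0.03125 for each of the 5 pairs. That is the smallest p it can give with 6 arrays, and it was 0.0375 after adjustment over the 6 pairs. Col3a1 probe 6531 exceeded probe 6654 by 0.40 ± 0.37 (SD, n = 6) on 5 of 6 arrays (exact permutation p = 0.0625, adjusted 0.0625). Which part of each transcript the probes read was not analysed here.

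Averaging the probes of each gene, all 5 genes were called higher at day 21 by limma, where 8.78% of features tested that way were called higher and 9.93% lower. The averages over the 6 late arrays were 1.89 for Col1a2, 1.47 for Col5a1, 1.44 for Col5a2, 1.23 for Col3a1 and 1.04 for Col1a1. Col1a2 exceeded Col1a1 on all 6 arrays, by 0.84 ± 0.33 (SD, n = 6; exact sign-flip permutation p = 0.03125, adjusted over 10 pairs 0.156). In every other pair the order was broken on at least 1 array. With 6 arrays, at least 7 of the 10 pairs would have to reach the smallest p for any to pass after adjustment, so that 0 passed says little about the order. The order also rests on which probes are averaged, since Col3a1 and Col1a1 each hold probes with small ratios.

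The other genes of collagen biology were read from 8 lists of pathway genes, 109 of whose 133 genes were on the arrays, with probes of a gene averaged. At day 21, 32 of the 109 were called higher and 3 lower, beside 8.78% higher and 9.93% lower among all features tested that way (1.23% and 1.06% at day 8, 5.66% and 4.9% at day 15), and their median was 0.19 against 0.00888 for all genes. Without day 21 array 1 the total of 35 calls was 16, and without day 21 array 2 it was 23. Among all features with probes kept apart, 18.3% were called at day 21 with all arrays, and 7.09% and 8.06% in these fits. Fibril partners and folding enzymes held most of the calls, and the 4 fibrillar chains measured outside the 5 held 0.

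**Figure D3:**
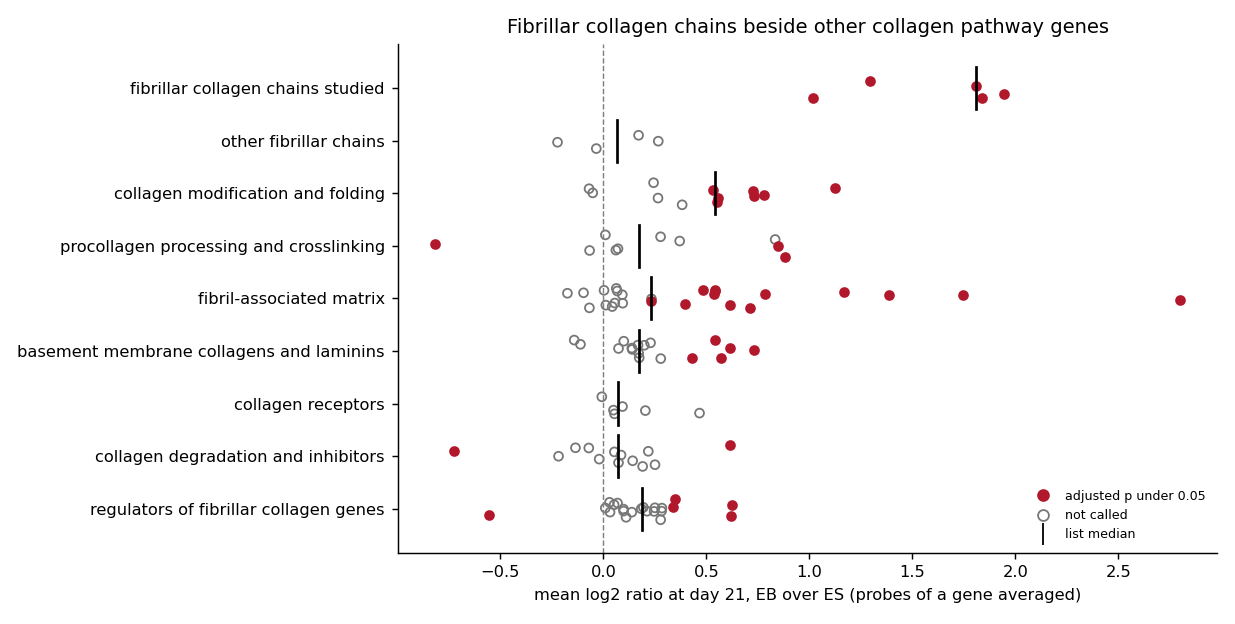
Mean log2 ratio of EB over ES at day 21 (horizontal axis, 3 arrays, probes of a gene averaged) for the 5 chains and for 8 lists of collagen pathway genes (rows, points jittered vertically). Red points are called at an adjusted p under 0.05 and bars mark list medians. The 5 chains have a median of 1.81, and Postn at 2.80 is the one pathway gene above all 5.

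Other fibrillar chains had small ratios. Of the 4 measured, 0 were called at any day: at day 21 Col2a1, the cartilage chain, averaged -0.22, Col11a1 -0.03, Col11a2 0.17 and Col5a3 0.27 (limma adjusted p = 0.153, 0.882, 0.174 and 0.163). The day 21 median of these 4 was 0.07. Over all features tested that way, 8.78% were called higher and 9.93% lower at day 21, so 0 of 4 says little. These are averages of probes that differed: at day 21 those of Col2a1 gave -3.33e-05 and -0.44, and those of Col11a1 0.27, -0.19 and -0.19.

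Collagen modification and folding genes had 7 of 12 measured members higher and 0 lower at day 21, with a median of 0.54. Serpinh1, the collagen-specific chaperone HSP47, averaged 1.13 ± 0.07 (SD, n = 3; limma adjusted p = 0.00248). Plod2, a lysyl hydroxylase that sets the type of crosslink, averaged 0.78 ± 0.10 (SD, n = 3; limma adjusted p = 0.0127), and P4hb, a subunit of prolyl 4-hydroxylase, and Plod3 both averaged 0.73. Plod2 was already higher at day 8, at 1.06 (limma adjusted p = 0.0190), when the chains themselves were not. The prolyl hydroxylase subunit P4ha2, the hydroxylation cofactor Crtap and the isomerase Ppib made up the 7.

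Procollagen processing and crosslinking genes were mixed, with 2 of 10 higher and 1 lower at day 21 and a median of 0.17. The lysyl oxidases, which start crosslinks, included both genes called higher: Loxl2 at 0.88 ± 0.07 and Lox at 0.85 ± 0.03 (SD, n = 3 each; limma adjusted p = 0.0195 and 0.00149). Loxl1 gave 2.23, 1.02 and -0.04 on the day 15 arrays, a mean called higher at 1.07 (limma adjusted p = 0.0336), and 0.83 at day 21, which was not called (limma adjusted p = 0.0630). Pcolce2, an enhancer of procollagen C-proteinase, was lower at day 21, at -0.82 ± 0.54 (SD, n = 3; limma adjusted p = 0.0151). Its relative Pcolce was lower at day 8, at -0.89 (limma adjusted p = 0.0404), and gave 0.28 at day 21 (limma adjusted p = 0.361).

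Fibril-associated matrix genes had 13 of 25 higher and 0 lower at day 21, with a median of 0.23. Postn averaged 2.80 ± 0.21 (SD, n = 3; limma adjusted p = 7.53e-08). The small leucine-rich proteoglycans lumican and decorin, which coat fibrils and limit their width, followed, with Lum at 1.75 ± 0.31 and Dcn at 1.39 ± 0.28 (SD, n = 3 each; limma adjusted p = 9.76e-06 and 0.00147). Sparc, a collagen-binding matrix protein, averaged 1.17 ± 0.19 (SD, n = 3; limma adjusted p = 0.00235) and was higher from day 8 on, at 0.93 (limma adjusted p = 0.0379). Probe disagreement was not limited to the 5 chains: the 4 probes of Col6a3 averaged 1.86, 0.25, 0.18 and -0.13 at day 21.

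Basement membrane collagens and laminins had 5 of 17 higher and 0 lower at day 21, with a median of 0.17. Col4a1 averaged 0.73, Col4a3 0.61, Col4a5 0.57 and Lamb2 0.54 (limma adjusted p = 9.22e-04, 0.0102, 8.94e-04 and 0.0148). The probes of Col4a1 gave 0.03, 1.31 and 0.85 at day 21, and those of Col4a5 0.29 and 0.85. Col4a1 was also higher at day 8, at 0.65, as was the laminin chain Lamb1, at 0.93 (limma adjusted p = 0.0179 and 0.0190), a day at which 0 of the 5 fibrillar genes was called with probes averaged.

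Receptors, degrading enzymes and regulators are read against the same 8.78% higher and 9.93% lower over all features at day 21. Of 6 collagen receptors measured, 0 were called at any day. Of 13 genes of collagen degradation, the membrane collagenase Mmp14 was higher at day 21, at 0.61 ± 0.32, and the metalloproteinase inhibitor Timp1 lower, at -0.73 ± 0.18 (SD, n = 3 each; limma adjusted p = 0.0139 and 0.00645). The probes of Timp1 disagreed in size, at -0.26 and -1.20. Of 22 regulators of fibrillar collagen genes, 4 were higher and 1 lower. Tgfb2, a transforming growth factor that raises collagen transcription in fibroblasts, averaged 0.63 ± 0.14, and Ccn2, encoding connective tissue growth factor, 0.62 ± 0.15 (SD, n = 3 each; limma adjusted p = 0.0475 and 0.00180). Tgfb2 was higher at day 15, at 1.22, with arrays of 1.64, 1.61 and 0.41 (limma adjusted p = 0.00289). Snai1 at 0.35 and Tgfb1 at 0.34 were near the threshold (limma adjusted p = 0.0451 and 0.0498), and the lower gene was Ybx1, a nucleic acid-binding protein, at -0.56 (limma adjusted p = 0.00887).

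Markers of the cells that could make these chains did not move as 1 group. Of 8 fibroblast and mesenchyme markers at day 21, Postn, Vim at 0.89 and Pdgfra at 0.61 were higher, S100a4 at -1.72 and Thy1 at -0.59 were lower, and Pdgfrb at 0.10, Twist1 at 0.03 and Prrx1 at 0.14 were not called. The median of these 8 ranged from 0.00 to 0.18 on the day 21 arrays and from -0.26 to 0.10 on the day 4 arrays. Of 4 smooth muscle markers, Acta2 at 0.75 and Tagln at 0.73 were higher at day 21, while Cnn1 at -0.08 and Myh11 at -0.15 were not called. Of 3 osteoblast markers measured, Alpl was lower at -0.66 and Sp7 and Ibsp were not called, and of 4 cartilage markers Comp was lower at -0.34 and the other 3 were not called. Heart muscle had 3 of 4 markers higher, with a median of 0.84, visceral endoderm 4 of 4, with a median of 2.90, and parietal endoderm 2 of 5 higher and 1 lower, with a median of 0.28. Which cells carried the chains was not tested.

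The genes whose ratios ran most like the median of the 5 chains over the 12 arrays were sought among 9207 other genes. Pearson's r is given as a description only, since the arrays share the ES RNA and fall into an early and a late group. The 10 closest were Ndn (r = 0.980), Postn (0.978), Tmsb4x (0.9748), Itm2a (0.973), Tagln (0.973), Mest (0.968), Col4a5 (0.954), Tgfbi (0.953), Dlk1 (0.952) and Pla2g4a (0.947). Their day 21 means ran from 0.57 for Col4a5 to 2.80 for Postn, as a choice by likeness to a profile that is high on days 15 and 21 favours. Ndn, Dlk1 and Mest are imprinted genes, and Tgfbi encodes a matrix protein that binds collagen.

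**Figure D4:**
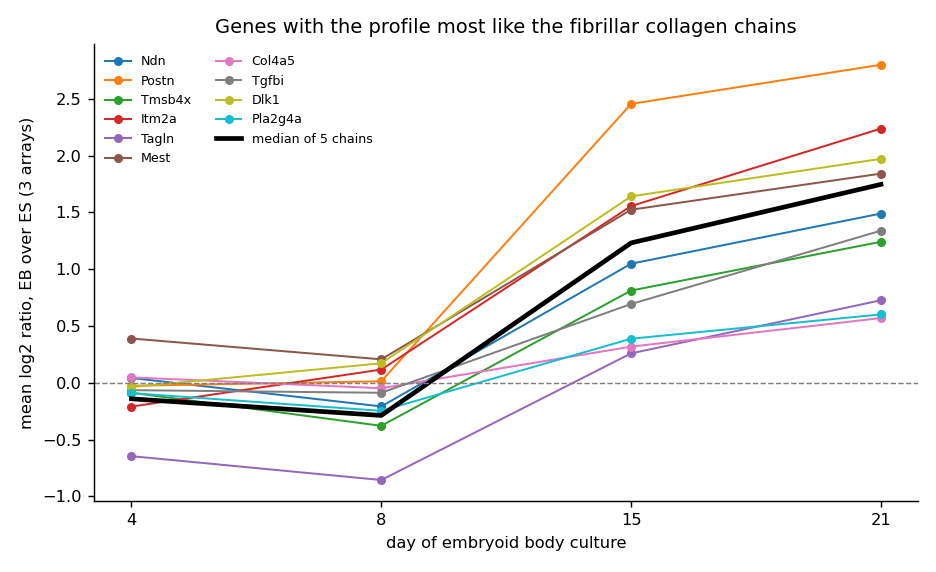
Mean log2 ratio of EB over ES (vertical axis, 3 arrays a day) by day of culture (horizontal axis, days evenly spaced and not to scale) for the 10 genes closest to the median of the 5 chains (black). Most lie near 0 at days 4 and 8 and above it at days 15 and 21. Tagln starts at -0.65 and Mest at 0.39.

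Taken singly, the 5 genes shared some of their 3 closest neighbours. Postn was among them for Col1a1, Col1a2 and Col3a1, and Ndn for Col1a2, Col5a1 and Col5a2. Col1a1 was also close to Maged2 and Igfbp4, Col1a2 to Pla2g4a, and Col3a1 to Mest and Dlk1. Both type V genes were close to Nrp1, which averaged 2.37 at day 21, with Pmp22 beside it for Col5a1 and Tagln for Col5a2. Postn gave 2.62, 2.68 and 2.06 on the day 15 arrays and 2.99, 2.58 and 2.83 on the day 21 arrays. On day 21 array 3 it lay above both Col1a1 probe 1665 and Col3a1 probe 5728, and on the other 5 late arrays between them.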

How the data were processed

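Total RNA of mouse ES cells and of EB cultures was labelled by in vitro transcription with dye-bearing UTP, per the labels' protocols, and hybridised in 2 channels on 12 arrays, 3 for each of days 4, 8, 15 and 21. The deposited values are normalized log ratios, read as log2 because the largest is 4.47 in size; the base, the normalization method, the scanner and any filter on dim spots are not given in the sources used here. The deposited table had 11520 features and 0 missing values. Groups came from the sample titles. The ES channel counts as 1 control sample, so its own spread is left out. Nothing in the labels ties the 3 arrays of a day to separate cultures; the p-values then measure only spread among these arrays, and that may be technical. Without a dye swap, ratios against ES keep any dye bias of a probe. The number of arrays limits the precision.

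From these values, limma 3.58.1 in R 4.3.3 was fitted to all 12 arrays with a mean per day (degrees of freedom 8 residual, 4.53 prior). Each day was tested against 0 and against other days, two-sided, with Benjamini-Hochberg adjustment over all features. For pathway lists the probes of a gene were averaged first, giving 9212 genes and 10689 tested features. Pairs of probes and of genes were compared by exact sign-flip permutation tests. Features were named from GEO's platform annotation: 10043 had 1 symbol, 29 several and 1448 none, and of the named ones 10025 matched RefSeq by Entrez ID with 0 symbols changed. Promoters are RefSeq's, build GRCm38.p6. The fit was tested on simulated data.

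The genes named are all member probes, the called genes of each list with the largest day 21 means, up to 4, with up to 2 more called at another day, cell type markers, and the 10 genes closest to the members and 3 closest to each. Col2a1, Col11a1, Col11a2, Col5a3 and the remaining members of short lists were named after their values were seen. Members, lists and tests were chosen with earlier results of these data known. Alternatives were a replicate block, quantile normalization, scaling of arrays, array weights, array set as a term or alone (the sets alone were chosen after seeing the data), each day fitted alone, averaged probes, and each array left out.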

Additional observations from a re-analysis of the deposited data

Results flagged for a closer look

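The size of the chains' difference from ES depended on the day, by limma's test of the difference between days. For day 15 against day 8 the difference was 3.77 for Col3a1 probe 5728, 2.65 for Col1a1 probe 1665 and 2.39 for Col1a2 probe 8866. For day 21 against day 4 it was 3.30 for Col3a1 probe 5728, 2.49 for Col1a1 probe 1665, 2.30 for Col5a2 probe 10888, 2.13 for Col1a2 probe 8866, 1.91 for Col5a1 probe 4889 and 0.82 for Col3a1 probe 6531. The adjusted p-values for day 21 against day 4, from limma, were 1.60e-05, 5.99e-05, 0.0106, 0.00304, 0.00150 and 0.00741 in the same order of probes.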

How the results depend on the processing

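Setting each probe's mean on each day against its value under each alternative, 661 kept their direction and side of the threshold, 24 lost a call, 16 gained one and 19 changed sign, 0 of which were called on either side. These 19 concern 10 values. With 1 array left out the ranges crossing 0 were -0.0069 to 0.1145 for Col3a1 probe 6654 at day 4, -0.0062 to 0.0824 at day 8 and -0.02705 to 0.16685 at day 15; -0.09485 to 0.10105 for Col3a1 probe 6531 at day 4; -0.02115 to 0.0112 for Col1a1 probe 8631 at day 4 and -0.0205 to 0.08985 at day 8; -0.0678 to 0.0204 for Col1a1 probe 7677 at day 8; and -0.40315 to 0.03195 for Col1a2 at day 4. Array weights gave 0.0033 for probe 8631 at day 4. The first array set gave 0.0587 for probe 7677 at day 8, 0.0112 for 8631 at day 4, 0.03195 for Col1a2 at day 4, -0.09485 and -0.0665 for 6531 at days 4 and 8, and -0.0077 and -0.02705 for 6654 at days 8 and 15. The second gave -0.0205 for 8631 at day 8, -0.099 for 6654 at day 4 and -0.2604 for Col5a2 at day 15, its 1 array of that day. The count at day 8 against ES, 1 probe lower, was 2 under the replicate block, 3 under quantile normalization, 3 with array weights, 2 with the array set as a term, 0 for day 8 fitted alone, 0 in the first array set, 2 in the second, 0 of 5 genes with probes averaged, and 0 to 2 with 1 array left out. At day 15 the 6 calls became 3 with day 15 fitted alone and 4 to 7 with 1 array left out. For day 15 against day 8 the 3 calls became 7 with array weights and 2 to 6 with 1 array left out. All features called numbered 20 as deposited, 601 with array weights and 6 for those days fitted alone. For day 21 against day 4 the 6 calls were 6 or 7 with 1 array left out. The 35 pathway calls became 16 to 37 with 1 array left out. All features called at day 21 ranged from 817 to 2345 in those fits. The second array set holds 1 array each of days 4, 15 and 21, and the first holds 1 of day 8. Separate counts of calls for the sets alone are therefore not given. The 5 of 6 probe pairs that passed became 0 over all 12 arrays. The causes of these changes were not tested. Replicate numbers were not taken to pair the arrays across all days, since 8 of 18 same-numbered pairs correlated above 0.1 (range -0.141 to 0.379); as a hint from the data, 10 of 12 arrays correlated best with their own number. Between days 15 and 21 all 3 pairs were above 0.1 (0.144 to 0.379), and with the block 0 members were called for that comparison, as without it. The replicate block called Col5a2 higher at day 15 (limma adjusted p = 0.0292) and Col3a1 probe 5728 lower at day 8 (0.0131), and it moved no member count but that of day 8 by over 1.5 times. Scaling changed how many features were called at day 21 against ES, 2104 as deposited, 1099 after quantile normalization and 1036 after scaling, while 7 members were called higher in each. For day 21 against day 4 those counts were 649, 395 and 327, and 1412 with array weights. At day 4 they were 0 as deposited, 150 after quantile normalization, 65 after scaling, 108 with array weights and 85 with a term for array set, with 0 members in each. At day 8 they were 265 as deposited, 560 after quantile normalization, 654 after scaling, 1065 with array weights, 479 with that term and 0 for the day fitted alone. At day 15 they were 1235 as deposited, 3452 with array weights and 290 for the day fitted alone. With 1 array left out, features called ranged from 0 to 15 at day 4, 6 (without day 8 array 3) to 414 at day 8, 259 (without day 15 array 2) to 1659 at day 15, 817 (without day 21 array 1) to 2345 at day 21, 5 (without day 15 array 1) to 142 (without day 15 array 3) for day 15 against day 8, and 252 (without day 21 array 1) to 812 for day 21 against day 4.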
